A study of Mus musculus with 12 samples.

Results

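The collagen and laminin chains are the structural proteins of the extracellular matrix, and 52 genes of the 18193 with a one-gene probe set on the array carry a name of this family. They were chosen by symbol alone (Col followed by a number and an alpha chain number, or Lama, Lamb or Lamc followed by a number), and the rule itself uses no measured value. Of the 52 genes, 42 encode collagen chains and 10 encode laminin chains, and together they were read by 101 probe sets. Each gene was read from its brightest probe set. For description the collagens were divided into 11 fibrillar chains, 9 chains of basement membranes and 22 others, and the 10 laminin chains were kept apart. RNA of adult C57BL/6J mice was hybridised to 12 Affymetrix mouse genome arrays. The livers came from WT mice, from mice null for Dscr-1 or for ApoE, and from double null mice that lacked both, with 2 arrays per genotype, and the labels give 12 weeks of HFD for these mice while the study's results text gives normal chow for its arrays. The aortic endothelial cells were isolated from ApoE null and double null mice and kept in culture for several days, with 2 arrays per genotype. By their labels all aortic samples, controls included, thus lacked ApoE, and only the loss of Dscr-1 differed between them. The deletions were not confined to a cell type, as far as the sources used here state. Nothing says whether the 2 arrays of an aortic group came from separate animals, so the spread between them may be technical. The study calls its 2 liver microarrays per condition independent, and the titles number them without naming separate animals.

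Fibrillar collagens (types I, III and V among them) assemble into the tensile fibers of interstitial tissue and are made mainly by fibroblasts, smooth muscle cells and activated hepatic stellate cells. Type IV collagen forms the network of the basement membrane, with the alpha1 and alpha2 chains in nearly every vessel and the alpha3 to alpha6 chains in particular tissues, while types XV and XVIII are proteoglycan collagens at its border. Laminins are trimers of 1 alpha, 1 beta and 1 gamma chain that polymerise on the cell surface and anchor cells through integrins. In the liver the sinusoids have only a thin, discontinuous basement membrane, and collagen I and III mark the scar of fibrosis. Dscr-1, the product of Rcan1, restrains calcineurin and thereby NFAT, and ApoE carries lipoproteins to their receptors.

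Promoters of 38 of the 52 chains could be read from RefSeq (build GRCm38.p6), as windows of 300 bases that begin upstream of the start site and end just after it. Those of 4 type IV chains are shown because these chains lay apart in the aortic cells below, Col4a1 and Col4a2 above and Col4a4 and Col4a5 below the controls. The 4 windows are chr8:11312777-11313076 (minus strand) for Col4a1, chr8:11312555-11312854 (plus strand) for Col4a2, chr1:82586800-82587099 (minus strand) for Col4a4 and chrX:141475169-141475468 (plus strand) for Col4a5. Capitals mark CCAAT boxes (CCAAT, or ATTGG on the other strand) and GC boxes (GGGCGG, or CCGCCC on the other strand).
Col4a1: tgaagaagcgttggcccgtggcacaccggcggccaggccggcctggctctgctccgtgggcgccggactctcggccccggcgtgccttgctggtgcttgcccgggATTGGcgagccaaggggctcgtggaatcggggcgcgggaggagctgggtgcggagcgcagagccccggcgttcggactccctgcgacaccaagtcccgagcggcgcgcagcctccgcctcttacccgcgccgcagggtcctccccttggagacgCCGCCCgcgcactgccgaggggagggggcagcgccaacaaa
Col4a2: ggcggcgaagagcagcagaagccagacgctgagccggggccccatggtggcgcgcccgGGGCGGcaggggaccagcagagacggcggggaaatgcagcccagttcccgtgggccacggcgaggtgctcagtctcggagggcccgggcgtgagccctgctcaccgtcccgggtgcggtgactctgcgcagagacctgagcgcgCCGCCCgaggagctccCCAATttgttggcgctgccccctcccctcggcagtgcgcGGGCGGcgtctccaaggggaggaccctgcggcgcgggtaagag
Col4a4: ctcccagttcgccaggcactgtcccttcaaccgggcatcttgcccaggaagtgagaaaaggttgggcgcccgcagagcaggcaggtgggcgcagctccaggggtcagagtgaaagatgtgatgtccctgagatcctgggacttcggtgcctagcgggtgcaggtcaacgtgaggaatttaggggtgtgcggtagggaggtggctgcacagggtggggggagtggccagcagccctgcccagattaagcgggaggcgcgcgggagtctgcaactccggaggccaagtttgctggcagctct
Col4a5: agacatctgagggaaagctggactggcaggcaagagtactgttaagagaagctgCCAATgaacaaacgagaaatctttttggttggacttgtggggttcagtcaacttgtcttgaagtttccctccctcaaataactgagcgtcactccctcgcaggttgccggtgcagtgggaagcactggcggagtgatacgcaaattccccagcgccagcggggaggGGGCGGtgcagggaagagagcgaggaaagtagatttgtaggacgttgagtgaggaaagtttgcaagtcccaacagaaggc
Col4a1 and Col4a2 lie head to head, their start sites 21 bases apart on opposite strands, and their windows share 78 bases. Col4a5 and Col4a6 also lie head to head, with start sites 1343 bases apart and windows that share 0 bases. A CCAAT box was found once in each of the Col4a1, Col4a2 and Col4a5 windows and not in that of Col4a4, while 37.4% of all 32851 promoter windows held one. GC boxes numbered 1 in Col4a1, 3 in Col4a2, 1 in Col4a5 and 0 in Col4a4, and 35.7% of all windows held at least 1. The GC box of Col4a1 lies in the 78 shared bases and is the same site as the last GC box of Col4a2. The letters GGAAA, the core of NFAT sites, were searched on both strands and occurred 0, 1, 0 and 4 times in the windows of Col4a1, Col4a2, Col4a4 and Col4a5. They are common, being present in 61.3% of all windows and in 23 of the 38 member genes. Over the members, 14 of 38 held a CCAAT box, 24 a GC box and 5 a TATA box (TATAAA, on either strand), which 13.6% of all windows held.

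In the livers, 41 of the 52 chains exceeded their array's median on at least 2 of the 8 arrays and were tested, and 11 did not. Only 11 chains were above the median on all 8 arrays, namely Col1a2, Col3a1, Col27a1, Col4a1, Col4a2, Col18a1, Col6a1, Col6a3, Col14a1, Col16a1 and Lama3. Array medians ran from 32.2 to 44.7 signal units, so a chain with a signal of 10 or 30 lay below the median probe set of its array. In the aortic cells 32 chains were tested and 20 were not, and 24 were above the median on all 4 arrays. The tested chains by class were 8 fibrillar, 7 basement membrane, 7 laminin and 19 other chains in the livers, and 7, 8, 6 and 11 in the aortic cells. Lama4 and Lamb2 passed the filter in the aortic cells and not in the livers, and Col15a1 passed in the livers and not in the aortic cells. A filter of this kind keeps a chain that is high in one group only, so the tested chains are not all members.

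The Apoe probe set read 19937.4 to 21510.3 on the 4 ApoE intact liver arrays and 79.8 to 305.0 on the 4 ApoE lacking ones. In the aortic cells, all of them labelled as lacking ApoE, it read 7.27 and 7.17 (log2) in ApoE null cells against 8.29 and 6.69 in double null cells, above the array medians of 4.45 to 4.5. Whether it lies within the deleted stretch is not stated, and no ApoE intact aortic sample was analysed here. The Dscr-1 genotype rests on the labels. Rcan1 has 2 probe sets, and no source read here places them inside or outside the deleted stretch, so neither tests the label. The brighter one read 210.0 and 133.7 in WT, 255.2 and 353.1 in Dscr-1 null, then 496.5 and 176.7 in ApoE null, with 491.5 and 209.5 in double null livers, and in aortic cells (log2) 9.99 and 9.92 without ApoE alone and 10.09 and 10.26 without both. ApoE null replicate 1 stood apart among the livers, with a mean correlation of 0.873 with the other arrays against 0.904 to 0.912 for the rest, and double null replicate 2 among the aortic arrays, with 0.961 against 0.978 to 0.98. All 8 hepatocyte markers passed the filter in the livers and all 12 endothelial markers in the aortic cells, where 0 of 5 leukocyte markers did. Markers of other cells passed there too, 7 of 9 for fibroblasts, 5 of 9 for smooth muscle, 6 of 9 for macrophages and 6 of 10 for stellate cells.

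No collagen or laminin chain passed an adjusted p (limma, Benjamini-Hochberg) of 0.05 in any of the 8 liver comparisons or in the aortic one. Hardly any gene did. The share of all tested genes that passed was 0.00678% for Dscr-1 null against WT, 0.0136% for ApoE null against WT and also for double null against WT, 0% for double null against ApoE null, 0.00678% for double null against Dscr-1 null and for ApoE lacking against ApoE intact livers, 0% for Dscr-1 lacking against intact livers and for the interaction, and 0.0172% in the aortic cells. At an unadjusted p under 0.05, 1 of 41 chains differed between Dscr-1 null and WT livers (3.82% of all genes), 5 between ApoE null and WT (5.71%), 3 between double null and WT (5.29%), 2 between double null and ApoE null (5.24%), 2 between double null and Dscr-1 null (4.32%), 1 in the interaction (4.30%), 5 with the lack of ApoE (5.69%) and 0 with the lack of Dscr-1 (4.55%). In the aortic cells it was 7 of 32 chains, against 4.95% of all genes. What follows is therefore a description of levels and differences, none of which reached the threshold over all genes.

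The fibrillar chains of the liver were mostly higher where ApoE was lacking. Col3a1, the chain of type III collagen, read 1277.5 and 630.6 in WT livers. It was 803.8 and 608.2 where only Dscr-1 was lacking, 1169.9 and 1563.9 where only ApoE was lacking, and 1491.2 and 1102.3 where both were. The first WT array lay among the ApoE lacking ones, and the other 3 ApoE intact arrays lay below all of them. Between the 4 ApoE lacking and the 4 ApoE intact liver arrays the log2 difference was 0.72 (SE 0.32, adjusted p = 0.782 by limma, exact permutation p = 0.0857, two-sided). Col1a1 and Col1a2 encode the 2 chains of type I collagen. Col1a1 read 52.0 and 18.9 in WT, 2.3 and 38.1 in Dscr-1 null, then 71.6 and 80.6 in ApoE null, with 42.3 and 53.8 in double null livers, a difference of 0.97 with the lack of ApoE (SE 0.41, adjusted p = 0.757 by limma, exact permutation p = 0.0571). It exceeded the array median on 2 of the 4 intact arrays and on all 4 lacking ones. Col1a2 read 278.6 and 176.5, 164.4 and 128.9, 255.6 and 226.5, and 297.9 and 259.4 in the same order of genotypes. Both Dscr-1 null values were the lowest of the 8 on this probe set, while another gave 0.72 for Dscr-1 null against WT. One WT array lay within the ApoE lacking range. The difference with the lack of ApoE was 0.49 (SE 0.27, adjusted p = 0.854 by limma, exact permutation p = 0.114). Col5a2 and Col5a1, chains of the type V collagen that regulates fibril width, differed by 0.68 (SE 0.58) and 0.03 (SE 0.40). Over the 8 tested fibrillar chains the median log2 difference with the lack of ApoE was 0.52, and 6 of 8 were higher, beside a median of 0.004 over all genes.

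**Figure D1:**
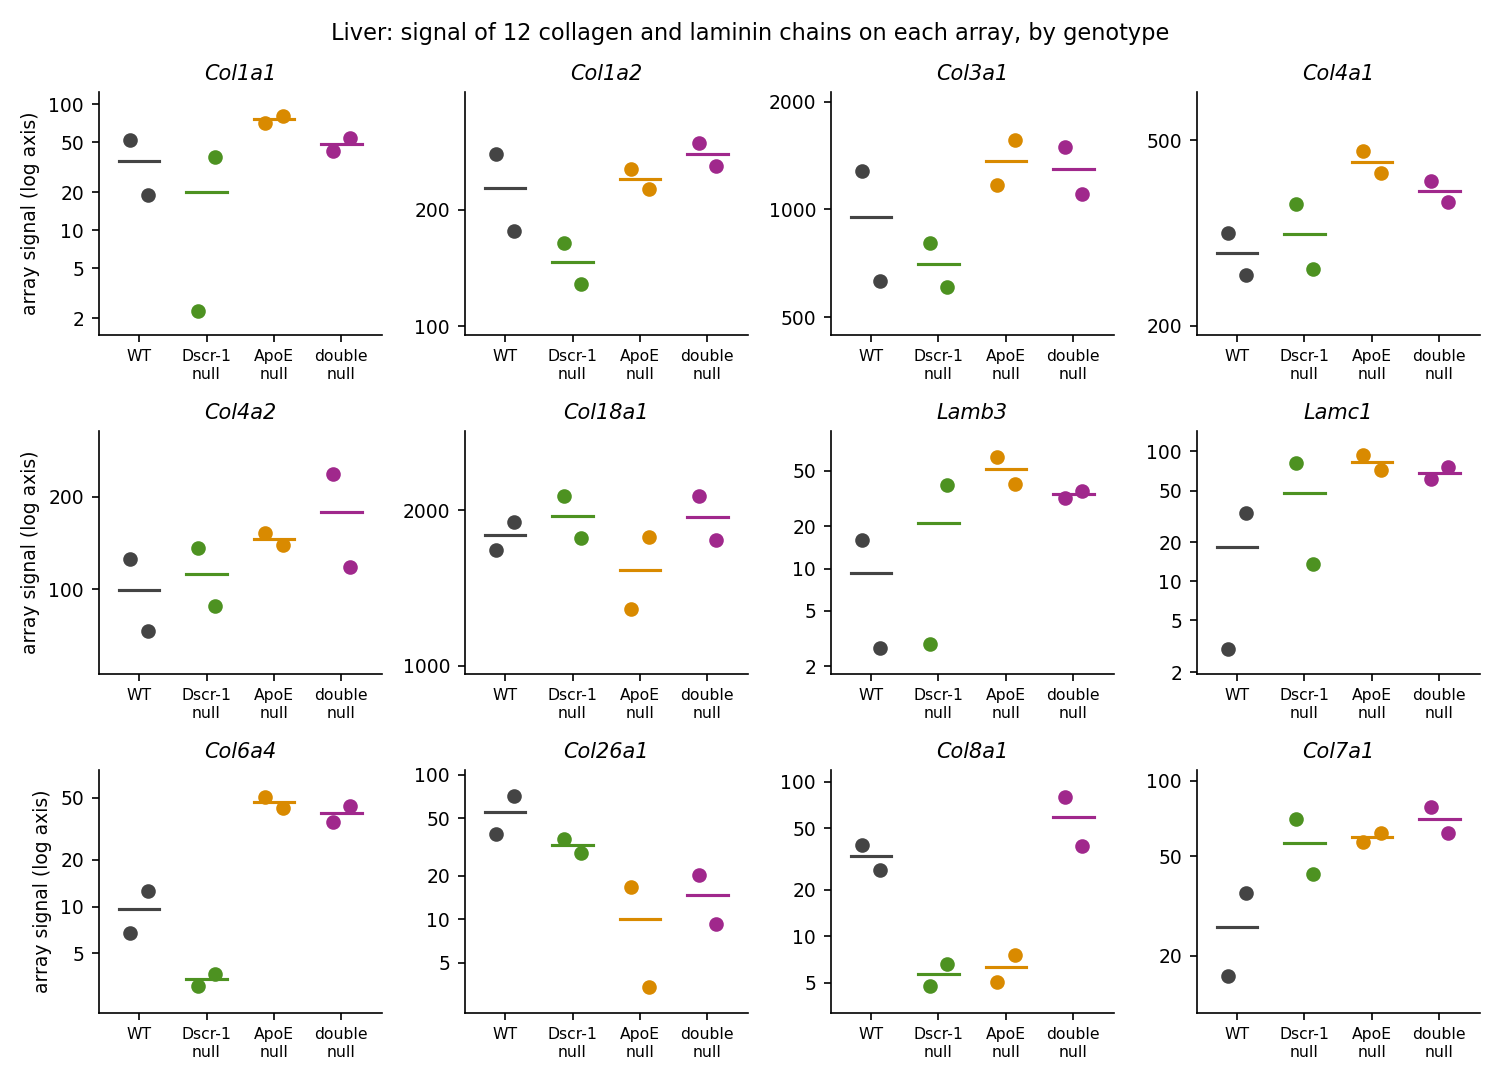
Signals of 12 chains on the 8 liver arrays (points, log axis, array signal units with each array scaled to an average of 100) by genotype, with the group mean as a line. Col6a4 is higher and Col26a1 lower on all 4 ApoE lacking arrays, and Col8a1 is high in WT and double null livers and low in both single mutants.

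Among the basement membrane collagens of the liver, Col4a1, 1 of the 2 chains of the common type IV network, read 316.5 and 256.2 in WT, 365.0 and 265.0 in Dscr-1 null, then 472.9 and 424.1 in ApoE null, with 408.5 and 367.3 in double null livers. All 4 ApoE lacking arrays lay above all 4 intact ones, though by a narrow margin between 367.3 and 365.0. The difference was 0.46 (SE 0.26, adjusted p = 0.852 by limma), and the exact permutation p of 0.0286 is the smallest that the 70 splits of 8 arrays allow. The second probe set of Col4a1 gave 0.38. Its partner Col4a2 read 125.7 and 72.9, 136.6 and 87.9, 152.5 and 139.5, and 238.0 and 118.4, and the groups overlapped (0.54, SE 0.33, adjusted p = 0.875 by limma). Col18a1, the source of endostatin, read 1287.2 to 2133.8 on the 8 arrays, with a difference of -0.12 (SE 0.26). Col15a1 differed by -0.62 (SE 0.38) on signals of 11.1 to 88.3. Col7a1, the anchoring fibril collagen, read 16.6 and 35.7 in WT and 42.3 to 78.7 on the 6 mutant liver arrays. Both WT arrays lay below every mutant array, and the difference between double null and WT was 1.06 (SE 0.41, adjusted p = 0.765 by limma). The median over the 7 tested chains was 0.12 with the lack of ApoE.

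Of the laminin chains of the liver, only Lama3 was above the median on every array. Lamb3, the beta chain of an epithelial laminin, read 15.9 and 2.7 in WT, 2.9 and 39.4 in Dscr-1 null, then 63.1 and 40.0 in ApoE null, with 32.0 and 35.7 in double null livers. One Dscr-1 null array lay inside the ApoE lacking range and the other 3 intact arrays lay below it (1.03, SE 0.40, adjusted p = 0.727 by limma, exact permutation p = 0.0857). Lamc1, the gamma chain shared by most laminins, read 3.0 and 33.6, 81.9 and 13.6, 93.1 and 71.8, and 61.1 and 75.3, again with 1 Dscr-1 null array among the ApoE lacking ones (1.16, SE 0.46, adjusted p = 0.741 by limma, exact permutation p = 0.114). Lamb1, the most widespread beta chain, had 0.55 (SE 0.41) from its brightest probe set and -1.19 from another, so its direction depended on the probe set. Lama5, the alpha chain of mature vessels and epithelia, read 132.5 and 12.1 on the double null arrays, the highest and the lowest of the 8 (difference with the lack of ApoE -0.06, SE 0.54). The median over the 7 tested laminin chains was 0.15. Of the 19 members with several tested probe sets, 11 had all of them on 1 side of 0 in this comparison.

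Of the other collagens in the liver, the chain with the lowest p of all members was Col6a4, an alpha4 chain of the beaded filament collagen VI. It read 6.8 and 12.6 in WT, 3.1 and 3.7 in Dscr-1 null, then 50.6 and 43.1 in ApoE null, with 34.8 and 44.7 in double null livers. The 4 intact arrays were all below the array median and the 4 lacking arrays lay near it, and no fold is given since the intact signals were not shown to be above background. The log2 difference, which an offset of 16 holds down at such levels, was 1.41 (SE 0.25, adjusted p = 0.535 by limma, exact permutation p = 0.0286). Col26a1 read 38.6 and 71.3, 36.0 and 28.8, 16.6 and 3.4, and 20.3 and 9.3, lower on all 4 ApoE lacking arrays (-1.06, SE 0.31, adjusted p = 0.624 by limma, exact permutation p = 0.0286). It exceeded the array median on ApoE intact arrays only, and Col6a4 did so on ApoE lacking arrays only. Each passed the filter through the group where it was high, so these p-values are not independent of the filter. The widespread alpha1, alpha2 and alpha3 chains of collagen VI had smaller differences. Col6a1 and Col6a3 differed by 0.30 (SE 0.32) and 0.26 (SE 0.31), and Col6a2 by -0.21 (SE 0.44).

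Over all 41 tested chains, 24 were higher and 17 lower where ApoE was lacking, with a median of 0.13. Groups did not overlap for 2 chains in the higher direction (Col6a4 and Col4a1), where 2.24% of all genes did so, and for 1 in the lower direction (Col26a1), where 1.63% did. Of these, Col6a4 and Col26a1 had passed the filter only through the group where they were high. Macrophage markers stood apart in the same livers. All 9 passed the filter, and their summed signal was 4020 to 5758 on the 4 ApoE intact arrays and 7503 to 17829 on the 4 ApoE lacking ones. Cd68, Lyz2, Marco, Cd5l and Lgals3 were higher on every ApoE lacking array than on every intact one, whereas the other 4 overlapped, Adgre1 reading 148.9 to 308.6 on the intact and 163.4 to 197.5 on the lacking arrays. Stellate cell markers (10 of 10 above the filter) summed to 2985 to 3606 and 3338 to 3993, and fibroblast markers (7 of 9 above it) to 1882 to 3164 and 1856 to 3407. The part of cell numbers in the collagen values was not tested, and more cells of a type cannot be told apart here from more RNA per cell. With the outlying ApoE null replicate 1 left out, the difference was 1.36 for Col6a4, -1.25 for Col26a1, 0.82 for Col3a1, 0.43 for Col4a1 and 1.08 for Lamc1, and the median over the tested chains was 0.02.

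The lack of Dscr-1 gave smaller values in the liver. The median over the 41 tested chains was -0.07, with 16 higher and 25 lower, beside -0.003 over all genes. Col13a1, a transmembrane collagen, read 26.2 and 42.0 in WT, 43.2 and 12.9 in ApoE null, 79.8 and 44.8 in Dscr-1 null and 75.1 and 50.8 in double null livers. The 4 arrays lacking Dscr-1 all lay above the others, by a narrow margin (0.77, SE 0.34, adjusted p = 0.849 by limma, exact permutation p = 0.0286). It was the 1 chain of 41 in which the groups did not overlap upward, which 1.50% of all genes showed, while downward it was 0 chains and 1.34% of all genes. Col4a6, a type IV chain of epithelia and smooth muscle, read 49.1 and 62.1, 51.3 and 33.3 with Dscr-1 and 24.1, 10, 47.4 and 8.4 without it (-0.85, SE 0.37, adjusted p = 0.845 by limma, exact permutation p = 0.0571). Lamb1 (-0.67, SE 0.41), Col22a1 (-0.52, SE 0.30) and Col7a1 (0.49, SE 0.29) completed the 5 with the lowest p. The second tested probe sets of Lamb1 and Col22a1 had the opposite sign, at 0.15 and 0.45. Col22a1 exceeded the array median on the 2 ApoE null arrays only, at 69.1 and 34.6. It thus passed the filter through arrays with Dscr-1, where it was high, and its p is not independent of the filter.

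Col8a1, a network-forming collagen of vessel walls, had the opposite sign of difference on the 2 backgrounds. It read 39.1 and 26.9 in WT, 4.8 and 6.6 in Dscr-1 null, then 5.1 and 7.6 in ApoE null, with 79.6 and 38.7 in double null livers. Both single mutants lay below WT without overlap, and the double null arrays lay far above both single mutants. The log2 difference with the loss of Dscr-1 was -1.17 on the ApoE intact and 1.70 on the ApoE null background, an interaction of 2.86 (SE 0.57, adjusted p = 0.755 by limma, unadjusted p = 0.00108). Col8a1 exceeded the array median on only 3 of the 8 liver arrays, at 39.1 in WT and at 79.6 and 38.7 in double null livers. It thus passed the filter through the groups where it was high, so these p-values are not independent of the filter. Over the 41 chains the median interaction was 0.10, beside 0.023 over all genes.

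Between double null and WT livers 6 chains were over 2-fold higher and 6 over 2-fold lower by the ratio of mean signals, where 11.7% and 7.49% of all genes were. The 6 higher ones had mean WT signals of 9.3 to 33.45, beside WT array medians of 32.2 and 34.7. The 6 lower ones had mean double null signals of 9.7 to 22.4, beside array medians of 37.6. These low signals were not shown to be above background. The 5 tested chains with the lowest p were Col6a4 (1.12, SE 0.35), Col26a1 (-1.19, SE 0.44), Col7a1 (1.06, SE 0.41), Lamc1 (1.45, SE 0.66) and Lamb3 (1.03, SE 0.56), with adjusted p values of 0.68 to 0.893 by limma. The medians over the chains were 0.03 for Dscr-1 null, 0.11 for ApoE null and 0.15 for double null against WT, all 3 of which share the WT arrays. Double null against ApoE null gave -0.08 and double null against Dscr-1 null 0.19.

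**Figure D2:**
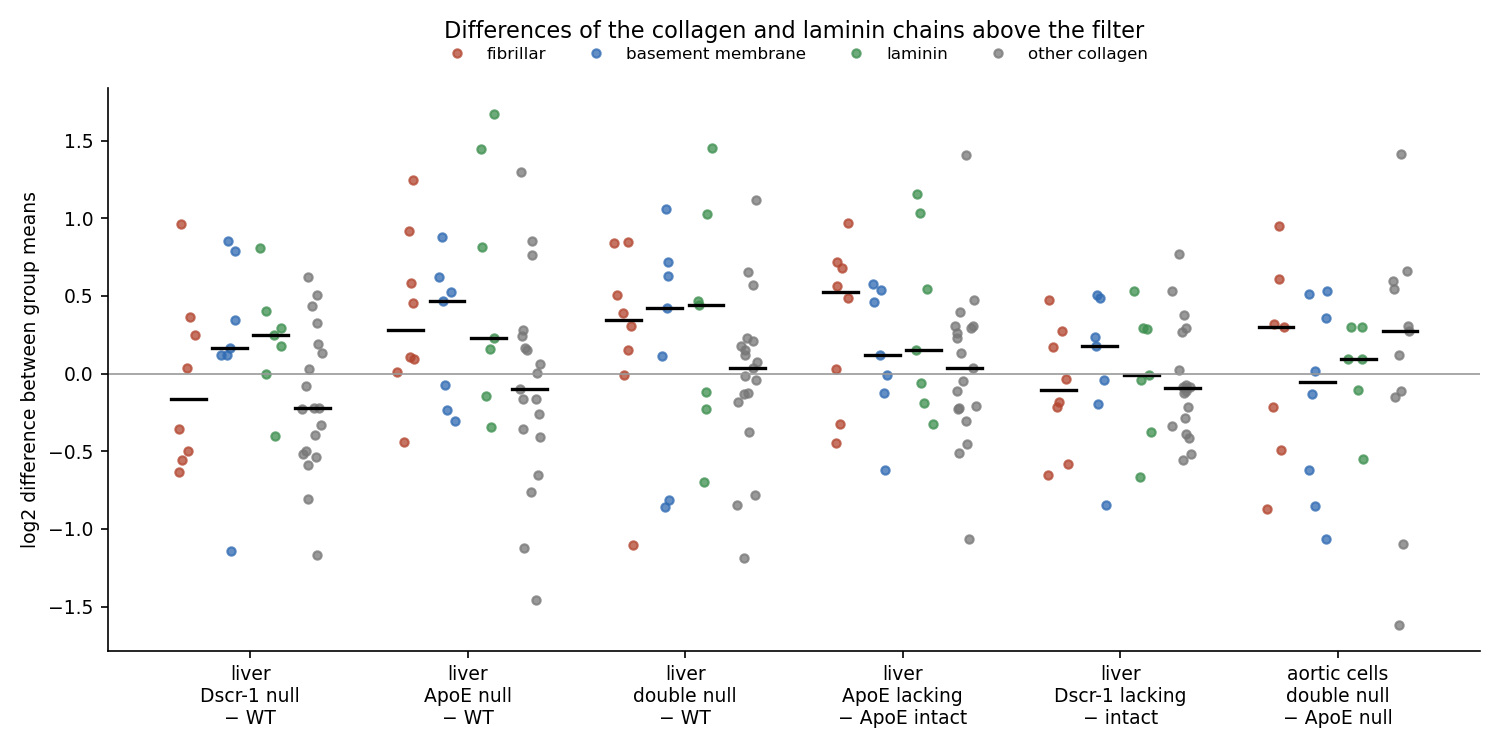
Log2 difference between group means (y axis) of each tested chain (points, colored by class) in 5 liver comparisons and the aortic comparison, with the class median as a black bar. The fibrillar chains have a median of 0.52 with the lack of ApoE in the liver, and in each of the 6 comparisons every class holds points on both sides of 0.

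Of the 6 type IV collagen chains tested in the aortic endothelial cells, 2 were higher on both double null arrays, 3 were lower and 1 overlapped. Over all aortic genes 16.8% were higher without overlap and 14.3% lower. None of the 6 chains passed an adjusted p of 0.05. Col4a1 read 12.28 and 12.19 (log2) in ApoE null cells against 12.80 and 12.74 in double null cells, and Col4a2 read 11.68 and 11.63 against 12.17 and 12.17. The gap between groups was wider than the gap between the 2 arrays of either group in both chains. The differences were 0.53 (SE 0.15, unadjusted p = 0.0156, adjusted p = 0.873 by limma) for Col4a1, with 0.44 from its second probe set, and 0.52 (SE 0.14, unadjusted p = 0.016, adjusted p = 0.877 by limma) for Col4a2. Within run 1 they were 0.52 and 0.49, and within run 2 they were 0.55 and 0.54. Col4a5, which pairs with the alpha3, alpha4 or alpha6 chain in specialised basement membranes, read 8.74 and 8.76 in ApoE null cells against 8.32 and 7.48 in double null cells (-0.85, SE 0.30, adjusted p = 1.0 by limma), and its second probe set gave -0.71. Col4a4 read 5.27 and 4.95 against 4.59 and 3.51 (-1.06, SE 0.39), with -1.33 from a second probe set, and Col4a3, named after its values were seen, read 5.24 and 5.0 against 4.75 and 4.25 (-0.62, SE 0.23). In all 3 chains both double null arrays lay below both controls and replicate 2 was the lower one, and Col4a3 and Col4a4 were close to the array medians of 4.45 to 4.5. Col4a6, which lies head to head with Col4a5, read 4.47 and 5.06 against 4.57 and 4.70 and overlapped (-0.13, SE 0.24). The part of promoter layout in the type IV differences was not tested. Col18a1 read 10.60 and 10.39 against 11.28 and 10.44, so that only 1 double null array lay above the controls.

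Among the aortic laminin chains, Lamb2, the beta chain of mature vessel and synaptic laminins, was lower in double null cells. It read 8.78 and 8.85 in ApoE null cells against 8.30 and 8.22 in double null cells, a difference of -0.55 (SE 0.15, unadjusted p = 0.0138, adjusted p = 0.849 by limma) and the lowest p of the 32 chains. Lamb1, the alternative beta chain, read 10.80 and 10.78 against 11.11 and 11.07, without overlap (0.30, SE 0.14), and its 3 probe sets gave 0.30, 0.32 and 0.36. Lamc1 overlapped, at 10.13 and 10.28 against 10.33 and 10.26. Lama4, the endothelial alpha chain, read 10.79 and 10.71 against 10.88 and 11.22 (0.30, SE 0.18, and 0.04 from a second probe set). Lama5 read 8.68 and 8.70 against 8.84 and 8.32, the double null arrays lying on either side of the controls.

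In 21 of the 32 aortic chains the gap between the 2 double null arrays was wider than the difference between the genotypes. Among them were 5 of 7 fibrillar chains (all but Col27a1 and Col5a1) and all 3 collagen VI chains described here. The same was not counted over all genes, so it cannot be called particular to these chains. Col1a2 read 8.80 and 8.47 in ApoE null cells and 10.87 and 7.63 in double null cells, and Col3a1 read 7.24 and 7.04 against 8.82 and 5.03. In each the first double null array was the highest of the 4 and the second the lowest. Col1a1 followed at 5.21 and 5.12 against 7.11 and 5.11, and the chains of collagen VI at 5.0 and 5.04 against 6.83 and 4.31 (Col6a1), 5.07 and 5.07 against 7.45 and 5.51 (Col6a2), and 6.39 and 5.72 against 7.88 and 5.43 (Col6a3). Only in Col6a2 among these 6 did both double null arrays lie above the controls (1.41, SE 0.63, adjusted p = 1.0 by limma). Col5a2 and Col8a1, chains of the type V and type VIII collagens, were lower on both double null arrays. Col5a2 read 12.82 and 12.69 against 12.58 and 11.19 (-0.87, SE 0.47), Col8a1 read 11.49 and 11.54 against 11.06 and 9.78 (-1.10, SE 0.43), and Col5a1 read 10.09 and 9.78 against 9.52 and 9.38 (-0.49, SE 0.18). Col14a1, a fibril-associated collagen chosen after its values were seen, read 6.74 and 6.26 against 6.52 and 3.23.

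**Figure D3:**
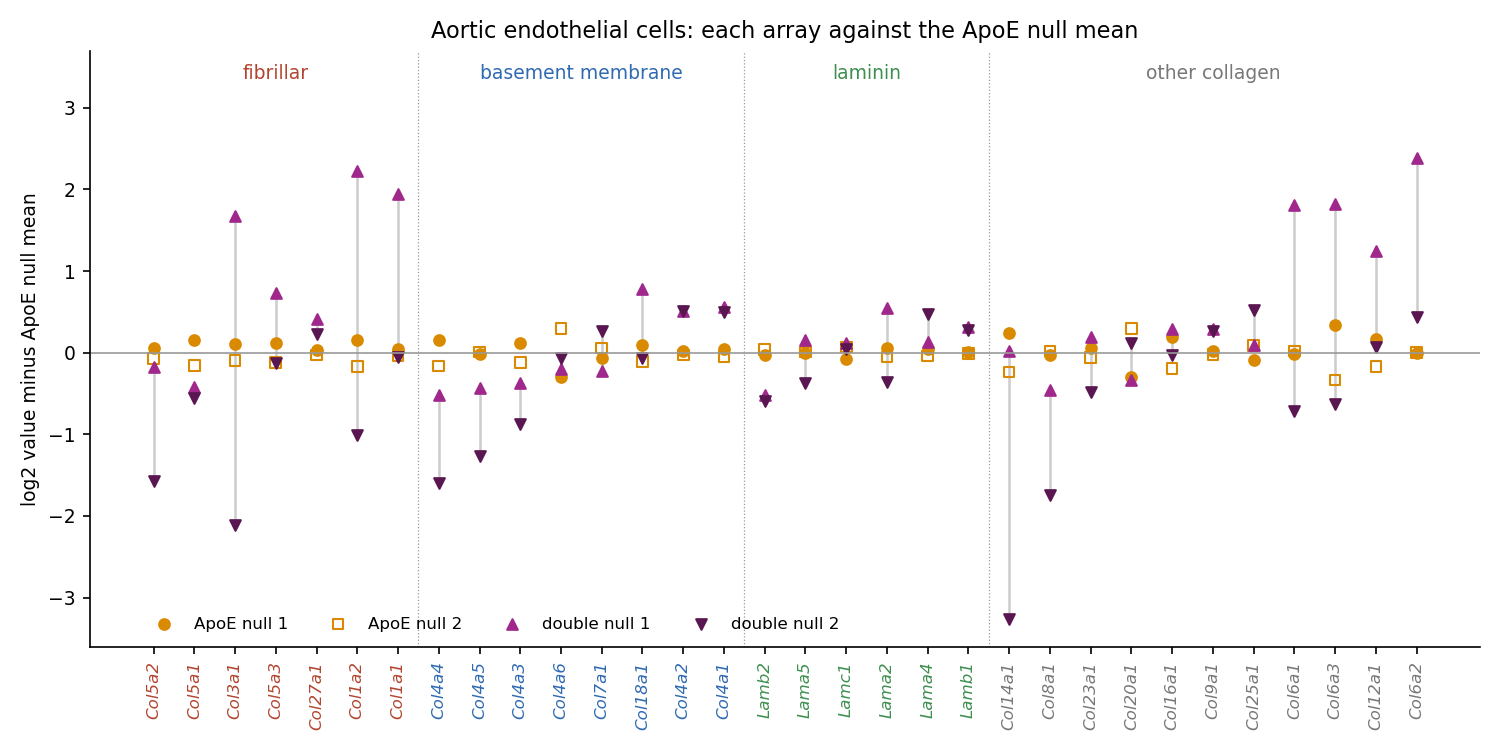
Log2 value of each aortic array minus the mean of the 2 ApoE null arrays (y axis) for the 32 tested chains (x axis, by class and sorted by difference), with a grey line joining the 2 double null arrays. Col4a1, Col4a2, Lamb1 and Lamb2 have both double null arrays close together, and Col1a2 and Col3a1 have them on opposite sides of the controls.

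The 2 double null arrays differed from each other more than the ApoE null arrays did. The median gap between the 2 ApoE null arrays was 0.126 over the 32 chains and 0.142 over all genes, whereas the gap between the 2 double null arrays was 0.598 over the chains and 0.253 over all genes. It exceeded 1 in 11 of 32 chains and in 698 of 11647 genes, against 0 and 8 in the ApoE null group, and the median gap of the 7 fibrillar chains was 1.39. Groups did not overlap for 8 chains in the higher direction and 7 in the lower, where 16.8% and 14.3% of all genes did so. One chain (Col6a2) was over 2-fold higher and 3 (Col4a4, Col8a1 and Col14a1) were over 2-fold lower, where 1% and 1.41% of all genes were. The difference over the 32 chains had a median of 0.11, beside -0.009 over all genes, with 19 higher and 13 lower. Within run 1 the median was 0.19 with 22 of 32 higher, and within run 2 it was -0.23 with 12 of 32 higher. Leaving out 1 of the double null arrays made calls that depended on which one was left, with the spread then read from the ApoE null pair alone. Without double null replicate 1, 12 of 31 chains passed an adjusted p of 0.05, all of them lower, where 17.1% of all genes passed. Without double null replicate 2, 9 of 31 passed, all of them higher, where 4.15% of all genes did. Col1a2, Col3a1, Col6a1 and Col6a3 were called both times, in opposite directions. An exact test of 2 arrays against 2 cannot give a two-sided p below 0.333.

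Markers of other cell types differed between the same 2 double null arrays. Acta2 and Tagln, contractile genes of smooth muscle, read 11.99 and 10.64 on the first double null array and 10.05 and 9.02 on the second, beside 10.63 and 10.57 for Acta2 and 9.44 and 9.25 for Tagln in ApoE null cells. The list was not uniform, since 3 of its 5 genes above the filter were higher on the first array (Lmod1 at 4.81 and 4.54), while Mylk (8.42 and 9.01 against 8.28 and 8.25) and Smtn (8.60 and 8.65 against 8.21 and 8.20) were above the controls on both and higher on the second. Summed on the linear scale, the 9 smooth muscle markers (5 above the filter, Myh11 not among them) gave 2954 and 2808 in ApoE null cells and 6487 and 2569 in double null cells. The stellate list (6 of 10) gave 1878 and 1798 against 2499 and 1038. The fibroblast list (7 of 9) was higher on both double null arrays, at 11875 and 13542 against 7733 and 7628. Within it Lum was high on the first alone (10.10, and 7.55 to 7.74 on the other 3 arrays), while Dcn was high on both (12.79 and 13.09 against 12.02 and 12.02) and Thy1 on the second (9.86 and 11.30 against 9.99 and 9.95). Of its 7 genes above the filter 4 were higher on the first double null array than on the second. The 12 endothelial markers summed to 28241 and 27474 in ApoE null cells against 28380 and 23607 in double null cells, where Vwf was 9.44 on the first array and 6.63 on the second and Cdh5 stayed between 11.91 and 12.10. Macrophage markers (6 of 9) gave 2096 and 1922 against 2837 and 4085, with Adgre1 and Cd5l below the filter. The part of these cell types in the collagen values was not tested. Col4a1, Col4a2, Lamb1 and Lamb2 had gaps of 0.00 to 0.09 between the 2 double null arrays.

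**Figure D4:**
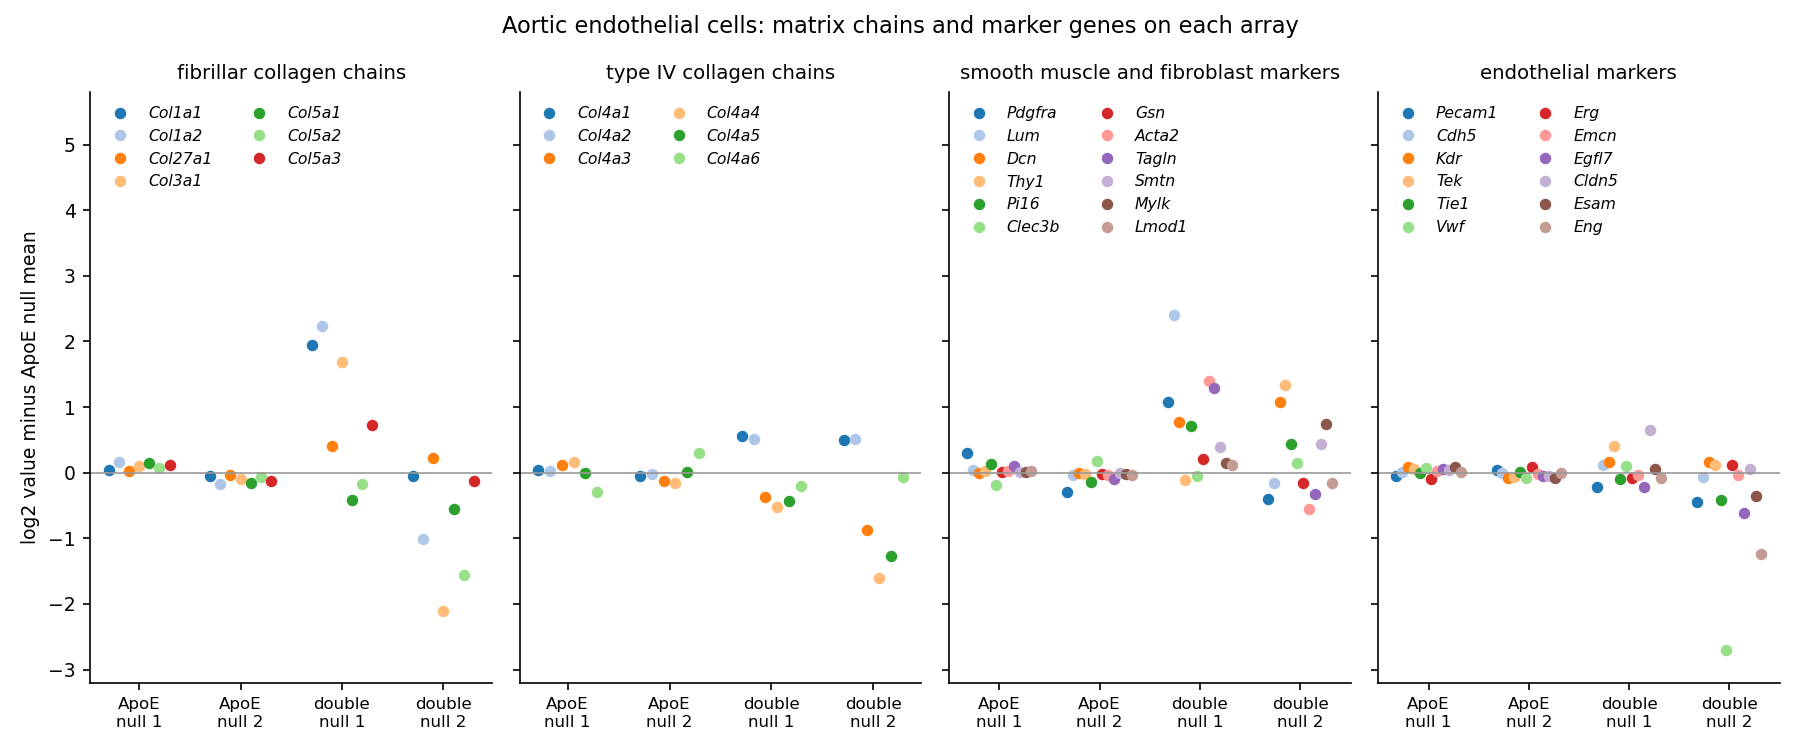
Log2 value minus the ApoE null mean (y axis) on each of the 4 aortic arrays for every gene above the filter among the fibrillar chains, the type IV chains, the smooth muscle and fibroblast markers and the endothelial markers (points, colored by gene). Col1a2 and Col3a1, and among the markers Acta2, Tagln and Lum, are high on the first double null array, whereas Mylk and Thy1 are high on the second, where Vwf is low.

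Genes that fold, cut, cross-link, bind or degrade these chains were read from lists, and 0 of their genes passed an adjusted p of 0.05 with the lack of ApoE in the liver or in the aortic cells. The genes named from these lists were chosen after their values were seen. In the aortic cells the folding and modification list had 6 genes higher and 12 lower (median -0.05). P4ha3, a prolyl hydroxylase subunit, was lowest there at -1.01 (SE 0.17, adjusted p = 0.615 by limma). It read 5.06 and 5.11 in ApoE null cells against 3.94 and 4.22 in double null cells, the latter below the array medians of 4.45 to 4.5. P4ha3 thus passed the filter through ApoE null arrays only, and its p is not independent of the filter. Of 8 tested genes for processing and cross-linking, 2 were higher and 6 lower, with a median of -0.38. Bmp1, the procollagen C-proteinase, read 8.21 and 8.14 against 8.67 and 8.79, while Lox, the enzyme that starts cross-links, read 9.40 and 9.17 against 8.94 and 6.94. Loxl1 had the pattern of Col1a2, at 5.50 and 5.19 against 7.24 and 4.07. The proteases held the 2 largest differences among the genes of these lists. The collagenase Mmp13 read 5.60 and 5.45 in ApoE null cells and 6.55 and 11.24 in double null cells (3.37, SE 1.503, adjusted p = 1.0 by limma), and the stromelysin Mmp3 read 5.31 and 5.44 against 6.51 and 9.84. Both were higher on the 2 double null arrays and by far the highest on the second, where Col1a2 and Col3a1 were at their lowest. Of 10 basement membrane partners 3 were higher and 7 lower, of 11 receptors 3 and 8, of 10 proteases and inhibitors 7 and 3, and of 12 inducers 6 and 6. Itgb4, the beta subunit of the laminin receptor alpha6 beta4, was lowest among the receptors at -1.64 (8.90 and 8.81 against 8.07 and 6.36).

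In the livers the receptors had 10 of 14 genes higher where ApoE was lacking, with a median of 0.24. Itga6, the alpha subunit of the same receptor, read 2.6, 4.3, 12.0 and 5.2 on the ApoE intact arrays and 12.9, 52.7, 81.0 and 40.8 on the lacking ones (1.40, SE 0.36, adjusted p = 0.597 by limma). Itgb4 differed by 1.0 (SE 0.30), at 2.7 to 29.3 on the intact and 20.8 to 53.6 on the lacking arrays, which overlapped. Both genes lay below the array median on every intact array and passed the filter through lacking arrays only. Mmp12, the macrophage elastase, read 11.5 to 37.9 on the intact and 70.2 to 95.5 on the lacking arrays (1.21, SE 0.26, adjusted p = 0.574 by limma). Tinagl1, a basement membrane glycoprotein, was lower on all 4 lacking arrays (-1.30, SE 0.43, adjusted p = 0.655 by limma). The other lists had medians of -0.04 (folding, 7 higher and 9 lower), -0.12 (processing and cross-linking, 2 and 5), -0.04 (basement membrane partners, 4 and 6), -0.02 (proteases and inhibitors, 5 and 6) and 0.02 (inducers, 6 and 5).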

How the data were processed

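RNA of liver (8 arrays) and of cultured aortic endothelial cells (4 arrays) was measured on 12 arrays, grouped by the sample titles. The authors deposited the liver values as linear MAS5 intensity (GeneChip Operating Software, average signal set to 100, trimmed mean of each array 99.3) and the aortic values as log2. For the latter, normalization was not given in the sources used here. Transcriptome Analysis Console is named in the submitters' processing notes. Of 45037 probe sets (64 controls set aside), 34945 had 1 gene in GEO's platform annotation, with symbols updated by Entrez identifier through RefSeq where it matched (34741). All 101 member probe sets matched. The series text names Dscr-1 null cells as the aortic control, whereas titles, labels and methods give ApoE null cells, which were used.

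Liver signals were taken as log2(signal + 16) and aortic values as deposited, with no further scaling, and differences of dim chains in the liver are thereby understated. Probe sets that exceeded the median of their array on 2 or more arrays of a tissue were fitted with limma 3.58.1 in R 4.3.3 (lmFit and eBayes, a mean per genotype, residual degrees of freedom 4 for liver, 2 for aorta), and p-values were adjusted by Benjamini-Hochberg over all 32005 and 22927 probe sets. The brightest probe set stood for its gene (14758 and 11647 genes). The number of arrays limits the precision. For 4 against 4 arrays an exact two-sided permutation test of the difference in mean log2 values was added. Tables and figures were made with pandas 2.3.3 and matplotlib 3.10.9. Fits were tested on simulated data.

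Named chains are Col1a1, Col1a2, Col3a1, Col5a1, Col5a2, Col4a1, Col4a2, Col15a1, Col18a1, Col6a1, Col6a2, Col6a3, Col8a1, Lama4, Lama5, Lamb1, Lamb2 and Lamc1, and the 5 with the lowest p with the lack of ApoE, with the lack of Dscr-1, in double null against WT livers and in the aorta. Members, lists and tests were chosen with earlier results of these data known. Alternatives were offsets of 1 and 64, no filter, quantile normalization, the mean of all probe sets of a gene, trended robust moderation, a replicate block, each array left out, and differences within run. Same-numbered liver arrays did not deviate together (r of -0.00155 to 0.0293 over 6 pairs of genotypes). The source names place same-numbered aortic arrays in 1 run, and their deviations correlated at 0.297.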

Additional observations from a re-analysis of the deposited data

Results flagged for a closer look

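Col8a1 and Col1a2 were marked because the loss of Dscr-1 moved both arrays one way on the ApoE intact and the other way on the ApoE null background in the liver. For Col8a1 the log2 difference was -1.17 on the first and 1.70 on the second, an interaction of 2.86 (SE 0.57, adjusted p = 0.755 by limma). For Col1a2 it was -0.56 and 0.20, an interaction of 0.75 (SE 0.54, unadjusted p = 0.198, adjusted p = 1.0 by limma). On the ApoE intact background the other tested probe sets of Col1a2 gave -0.43 and 0.72, so its direction there depended on the probe set. Col8a1 had passed the filter only through WT and double null arrays, where it was high.

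On the ApoE null background, 4 chains had arrays that did not overlap in either tissue and lay on opposite sides. Both double null arrays lay on one side of the ApoE null arrays in the liver and on the other in the aortic cells. Such separation was common over all genes. In the liver 2448 of 14758 genes were higher and 2305 lower without overlap, and in the aorta 1953 and 1661 of 11647. The share of all genes with opposite sides in the 2 tissues was not counted. The log2 difference was -0.20 in the liver and 0.53 in the aorta for Col4a1, 1.70 and -1.10 for Col8a1, -1.03 and 0.28 for Col9a1, and -0.93 and 0.30 for Lamb1. For Col9a1 the tissues were read from different probe sets, and the aortic one gave -0.33 in the liver. A second liver probe set of Lamb1 gave 0.70, the sign of the aorta. The difference between the tissues was not tested, since the tables were scaled separately. Col9a1, named here for this reason, read 7.2 and 37.3 in double null livers and was near the array median in the aortic cells.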

How the results depend on the processing

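The 7 liver medians that moved by more than the spread between replicates did so when 1 array was left out. Their ranges were -0.21 to 0.13 for Dscr-1 null against WT, -0.03 to 0.41 for ApoE null against WT, -0.00 to 0.47 for double null against WT, -0.17 to 0.10 for double null against ApoE null, -0.02 to 0.25 for double null against Dscr-1 null, -0.28 to 0.16 for the interaction and 0.02 to 0.33 for the lack of ApoE. No member passed in any liver comparison under any alternative run. In the aorta 0 to 12 members passed with 1 array left out, 12 without double null replicate 1 and 9 without double null replicate 2.

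With 1 array left out the signs of these differences changed within the ranges given: Col22a1 with the lack of Dscr-1 (-0.56 to 0.65), Col5a1 (-0.50 to 0.43), Col6a2 (-0.65 to 0.23) and Lama5 (-0.66 to 0.54) with the lack of ApoE, and in the aorta Col1a1 (-0.05 to 1.95), Col1a2 (-1.01 to 2.23), Col3a1 (-2.11 to 1.68), Col18a1 (-0.06 to 0.78), Col6a1 (-0.71 to 1.81), Col6a3 (-0.62 to 1.82) and Lama5 (-0.37 to 0.16). At an offset of 64 Col22a1 was 0.22 and Lama5 0.03. After quantile normalization Col5a1 was -0.10. With the mean of all probe sets Col5a1 was -0.33, Col6a2 0.22 and Lamb1 -0.32 with the lack of ApoE, and Lamc1 was -0.05 in the aorta. Within run 1 Col3a1 was 1.58 and Lama5 0.16, and within run 2 Col1a2 was -0.84, Col6a1 -0.74, Col6a3 -0.29 and Lamc1 -0.02. The causes were not tested.

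With the number as a replicate block 0 members passed in the aorta (median 0.11) and in the livers (median 0.13 with the lack of ApoE), and no other call changed. Signals near the array median limit most liver chains.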
